A study of Mus musculus with 4 samples.

Results

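The cytosolic ribosomal protein genes were described in HT-22 cells with and without PGC-1α overexpression and OGD. The group was chosen by name alone. It takes every mouse symbol that starts with Rpl or Rps and a digit, together with Rplp0, Rplp1, Rplp2 and Rpsa, and leaves out the S6 kinases (symbols starting with Rps6k), Rps19bp1, Rpl7l1 and symbols marked as pseudogenes. The rule found 83 of the 11502 gene symbols in the deposited table, 33 of the small subunit and 50 of the large subunit. Of the 84 protein-coding symbols in the annotation that meet it, only Rpl10l had no transcript in the table.

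HT-22 cells are a permanently growing line from the mouse hippocampus that serves as a model of its neurons. RNA-Seq was performed on 4 groups with 1 library each. The labels call Ctrl wild type, and the PGC-1α cells carried a lentivirus for its overexpression. Deprivation of oxygen and glucose gave the counterparts Ctrl+OGD and PGC-1α+OGD. The study also describes cells with a negative control lentivirus, and selection of infected cells with puromycin. It does not state that the sequenced control libraries came from such cells. Whether the control groups share a viral integration and the selection is therefore unknown. The part of infection and selection in the differences below was not tested. OGD meant 2 h in a hypoxia chamber flushed with nitrogen and carbon dioxide, in medium that lacked serum and glucose, and 24 h of normal medium came after it, so the OGD libraries show cells in recovery. No group had a second library, so no difference below has a replicate check and none was tested.

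Each ribosome carries a single copy of nearly all of these proteins, and the cell assembles them with ribosomal RNA in the nucleolus. Most of their mRNAs start with a terminal oligopyrimidine (TOP) tract, an unbroken stretch of C and T (U in the RNA) through which the mTOR pathway sets how strongly they are translated. PGC-1α is a transcriptional coactivator best known for driving the nuclear genes of mitochondria. Mitochondria have a ribosome and ribosomal proteins of their own, which were used here for comparison.

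The start sites were searched for pyrimidine runs, the kind of sequence that gives TOP mRNAs their name. RefSeq windows around the start of transcription (build GRCm38.p6, 250 bases before to 50 bases after) were at hand for 63 of the 83 genes, with 75 windows in all. A run of at least 8 pyrimidines that reached within 10 bases of the start lay on the gene strand in 30 of these windows (40%) and in 13.7% of all 32851 windows. Such a run can end before the RefSeq start, as that of Rps27l does (9 bases from base -12), so it is not the same as a TOP tract. The letters CCGGAAG, searched on both strands, lay in 36% of the windows of the ribosomal protein genes and in 8.86% of all windows. Read on the other strand, these letters begin with 5 pyrimidines, so the pair of patterns can overlap. AAGATGGC was present in 9.33% against 2.75% and TATAAA in 9.33% against 13.6%. A match describes letters only and does not show that a factor binds.

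The stretch from 70 bases before to 20 bases after the start is shown for genes whose values are given below and whose RefSeq start lies close to the start of their main deposited transcript. Capitals mark the pyrimidine run or CCGGAAG. Rps27 had the highest level of the group, Rps27l is its p53-responsive paralog, and Rps13, Rplp0 and Rpl10 have no run of that length at the start.
Rps27, chr3:90213629-90213718, minus strand: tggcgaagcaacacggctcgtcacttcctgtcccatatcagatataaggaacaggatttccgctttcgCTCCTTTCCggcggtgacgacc
Rps27l, chr9:66946016-66946105, plus strand: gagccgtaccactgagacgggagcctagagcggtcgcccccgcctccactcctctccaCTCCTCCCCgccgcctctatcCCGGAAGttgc
Rps13, chr7:116334171-116334260, minus strand: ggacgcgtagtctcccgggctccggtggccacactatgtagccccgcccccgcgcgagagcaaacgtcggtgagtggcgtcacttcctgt
Rplp0, chr5:115559397-115559486, plus strand: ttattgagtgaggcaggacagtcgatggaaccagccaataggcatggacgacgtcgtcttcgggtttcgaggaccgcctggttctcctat
Rpl10, chrX:74270746-74270835, plus strand: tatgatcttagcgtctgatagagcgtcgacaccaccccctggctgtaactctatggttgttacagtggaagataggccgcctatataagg

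The labels and the depth were checked first. Ppargc1a, which encodes PGC-1α, had 0.900 FPKM in Ctrl against 35.1 FPKM in PGC-1α, and after OGD 0.103 FPKM in control cells against 8.41 FPKM in PGC-1α cells, and was thus higher in both libraries labelled as overexpressing it. FPKM counts fragments per length of the transcript and per mapped fragments of the library. It is a share of the RNA in a library, so less RNA of these genes and more RNA of others cannot be told apart. The column totals ran from 331892 to 353381 FPKM, and the number of reads behind them is unknown. Of 11 neuronal markers, Syp, Camk2a, Eno2 and Dlg4 had values in the table, with sums of 7.07 to 11.4 FPKM, and none of 4 markers of hippocampal granule or pyramidal neurons did. The 3 fibroblast markers Col1a1, Col1a2 and Pdgfra summed to 432 to 523 FPKM, and the cycling markers Mki67 and Top2a to 267 and 321 FPKM without OGD and to 305 and 349 FPKM with OGD (control cells first). The sum of the cycling markers was thus higher with PGC-1α in both pairs of libraries. That of the neuronal markers was lower in both (11.4 and 7.07 FPKM without OGD, 9.57 and 7.36 FPKM with OGD). Camk2a, the largest part of the neuronal sum in each library, was lower with PGC-1α without OGD but slightly higher with OGD. Syp, Eno2 and Dlg4 were lower in both pairs, at levels of at most 2.81 FPKM. Astrocyte, microglia and oligodendrocyte lists had 1 marker each with a value, with sums of at most 4.76 FPKM, and the endothelial list had none. The part of these markers in the results below was not tested.

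The ribosomal protein genes made up a large part of all FPKM, and their share was lower with PGC-1α. Before OGD they held 11.3% of the column total in Ctrl and 9.85% in PGC-1α, and after OGD 11.5% in control cells and 10.6% in PGC-1α cells. Both libraries with PGC-1α thus lay below both libraries without it. The mitochondrial ribosomal protein genes held 0.803%, 0.929%, 0.940% and 0.950% in the same order, and the mitochondrial genome 4.23%, 5.32%, 4.37% and 5.31%. The share of the mitochondrial genome was therefore higher in the same libraries in which that of the cytosolic ribosomal protein genes was lower.

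Levels within the group were wide but kept their order. Ribosomal protein genes were 45 of the 100 genes with the highest mean, and 22 of the highest 50. Outside the paralogs that stand beside the standard set, the highest mean was 48.3-fold the lowest. FPKM is divided by the length of the transcript model. The main transcript had 345 bases for Rps27, 733 for Rpl29 and 5179 for Rps15a, and the part of this length in the levels was not tested. Spearman's rho of the 83 levels between any pair of libraries ran from 0.973 to 0.986, a description across genes of libraries that share the same transcript models. The median of the means was 276 FPKM for the small subunit and 384 FPKM for the large subunit. The low levels of some members, such as 45.0 FPKM in Ctrl for Rps2 and 28.2 FPKM for Rpl29, stand beside 23 and 2 near-identical annotated copies, whose part in these levels was not tested. Over the group, the 57 genes without such a copy had a median mean level of 361 FPKM, and the 12 genes with 5 or more copies one of 468 FPKM.

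**Figure D1:**
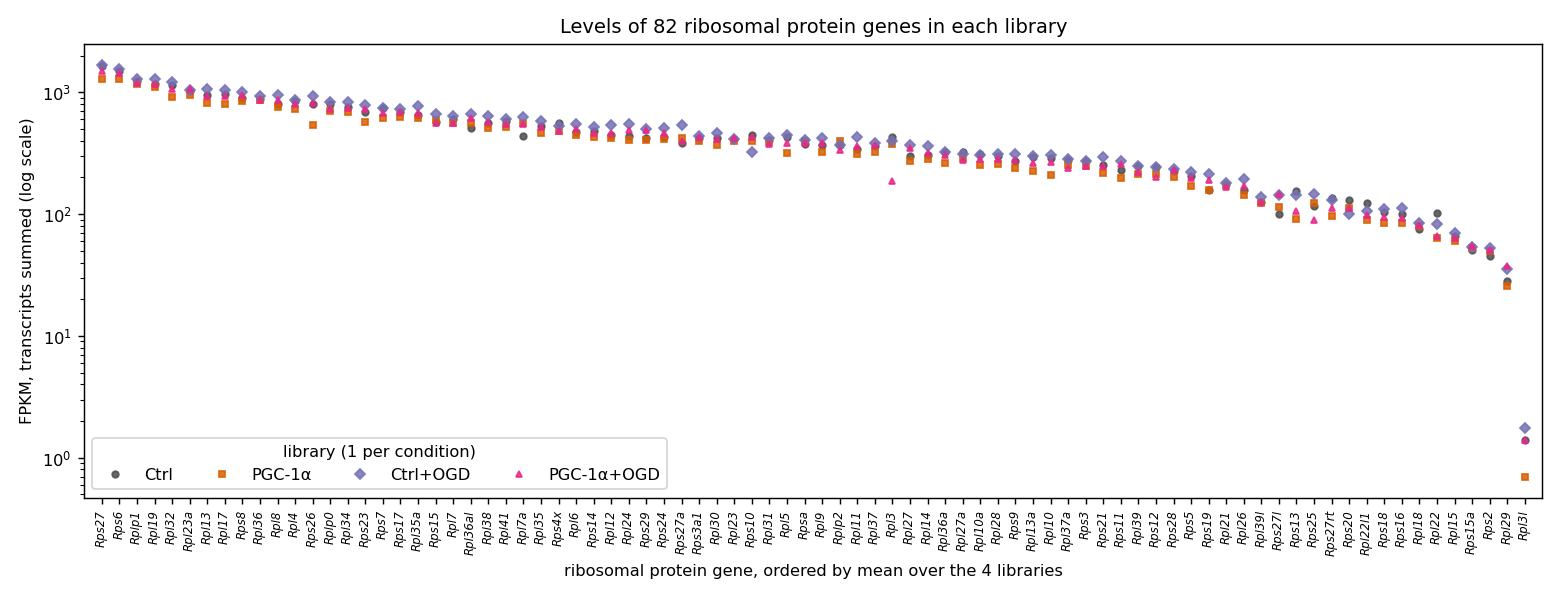
Level of 82 of the 83 ribosomal protein genes in each of the 4 libraries (FPKM, deposited transcripts summed, log scale), ordered from left to right by the mean over the libraries. The 4 symbols of a gene mostly lie close together from Rps27 at 1278 to 1689 FPKM down to Rpl29, with Rpl3 in PGC-1α+OGD standing apart and Rpl3l far below the others.

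The 5 members with the highest means show the pattern of the group. Rps27, a zinc finger protein of the small subunit, was at 1639 and 1278 FPKM in Ctrl and PGC-1α, and at 1689 and 1507 FPKM in their OGD counterparts. Rps6, the substrate of the S6 kinases, was at 1496, 1275, 1550 and 1443 FPKM in that order (control and PGC-1α without OGD, then both with OGD), which is used for all further series of 4 values. Both genes were lowest in PGC-1α and highest in Ctrl+OGD. Rplp1 was at 1235, 1175, 1280 and 1185 FPKM. Rpl19, often used as a reference gene, was at 1171, 1100.5, 1277 and 1171 FPKM. Rpl32 was at 1150, 914, 1206 and 1075 FPKM, and so again lowest in PGC-1α and highest in Ctrl+OGD.

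Across the group, 61 of the 83 genes had their lowest level in PGC-1α, against 24.4% of all 10604 genes compared, those with a mean of at least 1 FPKM. Their highest level was in Ctrl+OGD for 64 genes, against 26.1% of all genes, but for 39 genes, against 18.8%, once each column was scaled to the same total. The lowest level remained in PGC-1α for 57 genes under that scaling, against 21.9% of all genes. On the log2 scale, the median distance of a gene from its own mean was 0.02 in Ctrl and -0.14 in PGC-1α, and with OGD 0.14 in control and -0.00 in PGC-1α cells. The 83 genes also varied little: 86.7% of them had a range of less than 0.5 log2 units over the 4 libraries, compared with 67.3% of the 508 other genes that averaged at least 100 FPKM and 62.4% of all genes.

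**Figure D2:**
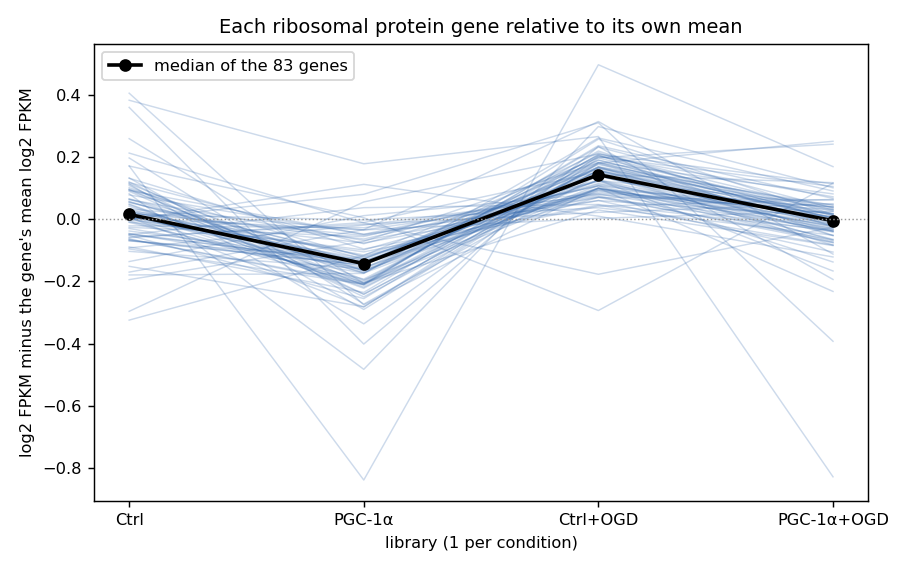
Each of the 82 thin lines is 1 ribosomal protein gene, drawn as its log2 FPKM in the 4 libraries minus its own mean (without a pseudocount), and the black line is the median of the 83 genes. The median dips to -0.14 in PGC-1α and reaches 0.14 in Ctrl+OGD, while the lines that leave the bundle belong to single genes such as Rpl3, low in PGC-1α+OGD. The lines join separate libraries and show no course in time.

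PGC-1α vs Ctrl asks what PGC-1α overexpression did to the cells before any deprivation. The ribosomal protein genes were slightly lower, with a median log2 fold change of -0.15 on the scale of log2(FPKM + 1) and a middle 50% from -0.23 to -0.08. Of the 83 genes, 71 (85.5%) lay below 0, against 54.2% of all genes, whose median was -0.03. In the same comparison the mitochondrial ribosomal protein genes had a median of 0.20, with 60 of 77 above 0, and the other genes of at least 100 FPKM one of 0.11. At the fold change of 1.5 used by the study, 3 members were lower and none was higher, compared with 10.5% of all genes past it (4.91% higher and 5.63% lower). The difference was thus a shift of many genes by a small amount and rarely reached the fold criterion.

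PGC-1α+OGD vs Ctrl+OGD asks the same after OGD, at a lower level of Ppargc1a (8.41 FPKM in PGC-1α+OGD, 35.1 FPKM in PGC-1α). The median log2 fold change was again -0.15, with a middle 50% from -0.19 to -0.10, and 75 genes (90.4%) lay below 0, against 52.9% of all genes. In this comparison the mitochondrial ribosomal protein genes had a median of -0.01 and the other genes of at least 100 FPKM one of -0.03. None of the 83 genes was 1.5-fold higher and 2 were lower, compared with 6.9% of all genes past that fold (3.08% higher and 3.82% lower). These libraries are separate from those of PGC-1α vs Ctrl, so directions can be counted across both. Of the 83 genes, 65 (78.3%) lay below 0 in both, against 30.4% of all genes, 14.3% of the mitochondrial ribosomal protein genes and 23.4% of the other genes of at least 100 FPKM. The count was 61 with median ratio scaling, against 26.9% of all genes, and 65 with columns scaled to the same total, against 29.3%. Those above 0 in both were Rps27l and Rps15a, the latter named after its values were seen.

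**Figure D3:**
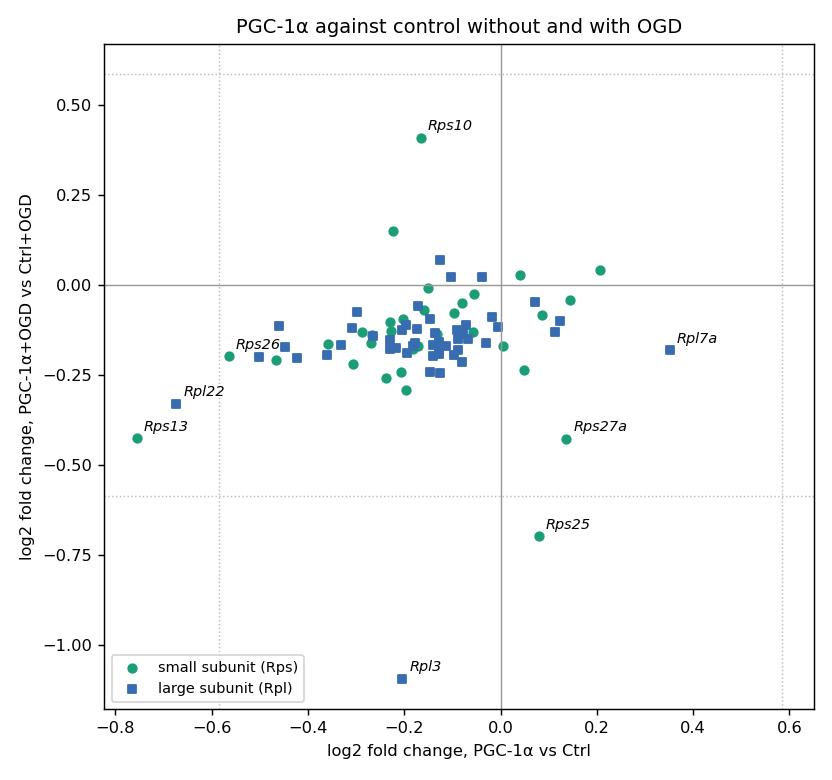
Log2 fold change of FPKM + 1 of 82 ribosomal protein genes in PGC-1α vs Ctrl (horizontal axis) and in PGC-1α+OGD vs Ctrl+OGD (vertical axis), with circles for the small and squares for the large subunit and dotted lines at 1.5-fold. Of these genes, 65 lie in the lower left part, most of them close to -0.15 on both axes, and the 4 genes past a dotted line are Rps13, Rpl22, Rps25 and Rpl3.

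The effect of OGD and recovery was asked in each kind of cell, in Ctrl+OGD vs Ctrl for control cells and in the corresponding pair for PGC-1α cells. In control cells the median log2 fold change of the ribosomal protein genes was 0.10, and 69 genes lay above 0, against 48% of all genes. With columns scaled to the same total the median was 0.01 and 42 genes (50.6%) lay above 0. Of all genes 38.6% did so under that scaling, with a median of -0.11. With median ratio scaling the median was 0.12 and 73 genes (88%) lay above 0, against 50.9% of all genes. In PGC-1α cells the median was 0.15 and 68 genes lay above 0, against 50.1% of all genes. With columns scaled to the same total 63 genes did so, against 43.9% of all genes. The column total of Ctrl+OGD was the highest of the 4 libraries, and in control cells the position of the group relative to 0 thus rests on the scaling. Its share above 0 exceeded that of all genes under each scaling. No member passed 1.5-fold in control cells, where 13.9% of all genes did (6.2% higher and 7.71% lower). In PGC-1α cells 1 member was higher and 1 was lower (Rpl3), compared with 9.03% of all genes (3.82% higher and 5.22% lower). The comparisons share no library. Of the 83 genes 57 (68.7%) lay above 0 in both, against 30.8% of all genes, and 34 did so, against 23.2%, with columns scaled to the same total. Rpl3, Rps20 and Rpl27a lay below 0 in both, Rpl27a being named after its values were seen.

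The medians of other highly expressed genes put these shifts in place. In Ctrl+OGD vs Ctrl, the mitochondrial ribosomal protein genes had a median of 0.28 and the other genes of at least 100 FPKM one of 0.19, both above the 0.10 of the cytosolic ribosomal protein genes. In PGC-1α+OGD vs PGC-1α these medians were 0.08 and 0.07, both below the 0.15 of the cytosolic group.

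**Figure D4:**
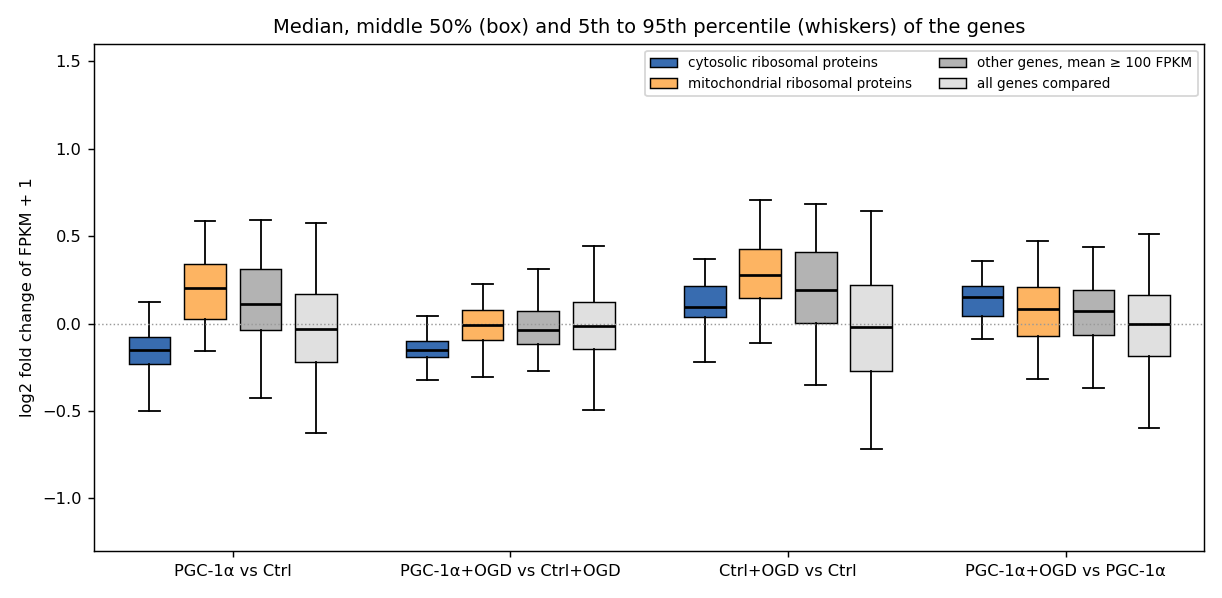
Distribution of log2 fold changes of FPKM + 1 in the 4 comparisons for the 83 cytosolic ribosomal protein genes, 77 mitochondrial ribosomal protein genes, 508 other genes that averaged at least 100 FPKM and all 10604 genes. The line is the median, the box the middle 50% and the whiskers the 5th and 95th percentiles over genes, not over replicates. The cytosolic group sits below 0 in both comparisons of PGC-1α with control, with medians of -0.15, while the mitochondrial group has medians of 0.20 and -0.01.

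The medians of both subunits lay below 0 in the comparisons of PGC-1α with control, and the subunits were not tested against each other. The 33 small subunit genes had medians of -0.17 in PGC-1α vs Ctrl and -0.14 in PGC-1α+OGD vs Ctrl+OGD, and the 50 large subunit genes -0.14 and -0.15. In the small subunit 25 genes (75.8%) and 29 genes (87.9%) lay below 0, and in the large subunit 46 (92%) in each. The 33 members with a single deposited transcript, for which no sum is involved, had medians of -0.18 and -0.14, with 32 and 31 below 0. The 57 members without a near-identical copy had medians of -0.14 and -0.15. Copies of a shorter part of the transcript were not counted, so these members are not shown to be free of shared reads.

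The medians were also taken by start site, where a run as counted here does not settle whether an mRNA has a TOP tract. The 29 genes with a pyrimidine run at the start, such as Rps27 above, had medians of -0.14 and -0.16 in the comparisons of PGC-1α with control, and the 34 genes whose windows showed none had medians of -0.16 and -0.16. The 26 genes with CCGGAAG had medians of -0.14 and -0.15, and the 37 without it -0.20 and -0.17. The 20 genes without a window are in neither count.

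The P stalk of the large subunit recruits the elongation factors and is built from Rplp0 with the acidic proteins Rplp1 and Rplp2. Rplp0 was at 796, 696, 829 and 727 FPKM, with log2 fold changes of -0.19 for PGC-1α in both comparisons. Rplp2 was at 368, 398, 371 and 339 FPKM, so its fold changes for PGC-1α were 0.11 without OGD and -0.13 with OGD. Rplp1, given above, had -0.07 and -0.11. The scaffold Rplp0 thus showed the direction of the group in both pairs of libraries, and Rplp2 only under OGD.

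Rpl5 and Rpl11 bring the 5S ribosomal RNA to the large subunit and, like Rpl23, can bind Mdm2, the ubiquitin ligase of p53. Rpl5 was at 428, 320, 442 and 385 FPKM, with log2 fold changes of -0.42 and -0.20 for PGC-1α. Rpl11 was at 343, 310, 429 and 363 FPKM (-0.15 and -0.24). Both were lower in the PGC-1α library of each pair. Rpl23 was flat at 413, 402, 412 and 419 FPKM.

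Further members of known role differed in size and direction. Rps3, at the entry of the mRNA channel, was at 272, 248, 273 and 248 FPKM. Rps19, the gene most often mutated in Diamond-Blackfan anaemia, was at 158, 159, 215 and 191 FPKM, and its log2 fold change of 0.44 in Ctrl+OGD vs Ctrl was among the higher ones. Rpsa, also known as the laminin receptor, was at 377, 401, 404 and 381 FPKM. Of these, Rps3 was lower in PGC-1α in both pairs, whereas Rps19 and Rpsa were not lower without OGD. Rpl10, which is needed for the last steps of large subunit maturation, was at 287, 210, 304 and 270 FPKM (-0.45 and -0.17 for PGC-1α). Rpl13a was at 292, 228, 300 and 262 FPKM (-0.36 and -0.19). Rpl41, the shortest of the proteins with 75 coding bases against 1257 for Rpl4, was at 587, 520, 603 and 554 FPKM.

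The paralogs outside the standard set were detected at different levels. Rpl3l, a form of Rpl3 known from muscle, was nearly absent at 1.4, 0.695, 1.75 and 1.4 FPKM, where Rpl3 itself was at 187 to 433 FPKM. Rpl22l1 was at 124, 90.0, 106 and 97.9 FPKM and Rpl22 at 103, 63.9, 83.0 and 65.9 FPKM, so the paralog exceeded its partner in every library. The other pairs were more uneven. Rpl36al was at 509, 555, 661 and 617 FPKM, above Rpl36a at 323, 262, 323 and 306 FPKM. Rpl39l was at 126, 123, 139 and 125 FPKM, below Rpl39 at 249, 214, 250 and 221 FPKM. Rps27rt, a retrogene of Rps27, was at 135, 97.3, 130 and 112 FPKM, and since both have a near-identical copy in the annotation its value is uncertain.

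Rps27l lay above 0 for PGC-1α in both pairs, unlike most of the group, and above 0 for OGD, like most of the group. It was at 99.3, 115, 143 and 147 FPKM, with log2 fold changes of 0.21 and 0.04 for PGC-1α and of 0.52 and 0.36 for OGD, the highest value of the 83 genes in Ctrl+OGD vs Ctrl. Its partner Rps27 had -0.36 and -0.16 for PGC-1α and 0.04 and 0.24 for OGD. Rpl7a was at 442, 564, 627 and 553 FPKM, with the highest log2 fold change of the group in PGC-1α vs Ctrl at 0.35, and with 0.51 in Ctrl+OGD vs Ctrl. It is also the member with the most near-identical copies, 32 in the annotation, and contains 3 small nucleolar RNA genes. Rpl7, its namesake from another protein family, was at 601, 564, 636 and 561 FPKM and thus lower with PGC-1α in both pairs.

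Among the members past 1.5-fold in PGC-1α vs Ctrl were Rps13 and Rpl22. Rps13, a small subunit protein (chr7:116331505-116334195, minus strand) whose start site is shown above, was at 156, 92.0, 143 and 106 FPKM, lower with PGC-1α in both pairs (-0.76 and -0.42). Rpl22, an RNA-binding protein of the large subunit (chr4:152325742-152334071, plus strand), was also lower in both pairs (-0.67 and -0.33). Rps13 and Rpl22 each have 1 near-identical annotated copy, and they have 2 and 3 deposited transcripts. Rps26, which lines the mRNA exit channel, came just short of the limit with 804, 543, 934 and 814 FPKM (-0.56, and 0.58 in PGC-1α+OGD vs PGC-1α). It has a single deposited transcript and no near-identical copy.

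The members past 1.5-fold in PGC-1α+OGD vs Ctrl+OGD were Rpl3 and Rps25. Rpl3, which reaches towards the peptidyl transferase centre (chr15:80077791-80091868, minus strand), was at 433, 375, 399 and 187 FPKM. The PGC-1α+OGD library was the low one, with log2 fold changes of -1.09 against Ctrl+OGD and -1.0 against PGC-1α. Rpl3 has 1 deposited transcript, 7 near-identical annotated copies and 2 small nucleolar RNA genes within it. Rps25, known for its part in internal initiation by viral RNAs (chr9:44407139-44410427, plus strand), was at 118, 124, 146 and 89.5 FPKM, again lowest in PGC-1α+OGD (-0.70). Rps20, by contrast, was at 131, 112, 100 and 111 FPKM, with the low value in Ctrl+OGD (-0.39 against Ctrl, so that PGC-1α+OGD lay 0.15 above it). None of the 5 members past the fold was past it in both comparisons of PGC-1α with control.

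The other members with the highest or lowest log2 fold changes of a comparison stayed short of 1.5-fold, which is 0.58 on the log2 scale. Rps2, with 23 near-identical copies, had 0.14 in PGC-1α vs Ctrl, and Rpl29 had 0.52 in PGC-1α+OGD vs PGC-1α, at levels of 25.7 and 37.2 FPKM. Rpl3l, with 0.50 in that comparison, is too low to be read in this way.

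Rps10, a small subunit protein near the mRNA entry that is ubiquitinated when ribosomes collide, was treated by transcript. Its sum was 447, 398, 324 and 430 FPKM, lowest in Ctrl+OGD (-0.46 against Ctrl). The transcripts behind the sum had other shares in that library. Rps10-208 was at 353, 317, 5.61 and 340 FPKM. Rps10-203 was at 89.9, 74.6, 295 and 83.8 FPKM. Rps10-208 thus held 78.9%, 79.7%, 1.73% and 79.1% of the gene, and Rps10-203 20.1%, 18.7%, 91.2% and 19.5%. Rps10-202 was at 3.91, 3.36, 17.5 and 1.10 FPKM, and Rps10-201 stayed at or below 5.41 FPKM.

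The gene models show what tells these transcripts apart. Rps10-208 (chr17:27630465-27634475, minus strand, GRCm38) has 498 bases and starts directly with the coding sequence, with no base before it. Its whole sequence lies within Rps10-203 (chr17:27630418-27635545, 887 bases), from base 343 on, and both have the same coding exons of 495 bases. Rps10-203 has 342 bases before the coding sequence, with a first exon upstream of the start of Rps10-208, and also runs further at its 3′ end. The first 30 bases of Rps10-208, with the start codon in capitals, lie at chr17:27634446-27634475.
Rps10-208, minus strand: ATGttgatgcctaagaagaatcggattgcc
Fragments from within the coding exons match either model, and the gene shares exons with RPS10-NUDT3. The annotation also holds 3 near-identical copies of Rps10-208. The log2 fold changes of Rps10-208, 5.69 in PGC-1α+OGD vs Ctrl+OGD and -5.74 in Ctrl+OGD vs Ctrl, therefore stand beside 0.41 and -0.46 for the sum. What lies behind the other shares in Ctrl+OGD was not tested.

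Shares also differed in a few other members. Of the 50 genes with more than 1 deposited transcript, 5 had a transcript whose share of the gene moved by over 20 percentage points between libraries, among them Rps10 (78.0), Rps27a (42.9), Rps12 (26.8) and Rpl31 (20.3), the last 2 named after their values were seen. The median over the 50 genes was 5.25 percentage points. Most of these 50 genes thus stayed within 20 percentage points, though some came near that limit, such as Rps2 (17.1) and Rpl22 (14.8).

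Rps27a, whose protein is made as a fusion with ubiquitin, was at 385, 423, 538 and 400 FPKM in sum. Rps27a-201 was at 87.8, 276, 346 and 89.3 FPKM and Rps27a-202 at 297, 147, 192 and 311 FPKM. The shorter form Rps27a-201 was the minor one in Ctrl and PGC-1α+OGD, with 22.8% and 22.3%, and the major one in PGC-1α and Ctrl+OGD, with 65.2% and 64.4%. The forms have the same 468 coding bases and differ in the bases before them, 132 in Rps27a-201 and 286 in Rps27a-202. For the sum, the log2 fold changes for PGC-1α were 0.14 and -0.43.

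In Rps12, Rps12-208 held 25.7%, 5.36%, 27.9% and 2.68%, and was lower in both PGC-1α libraries. The sum of Rps12 was at 244, 213, 245 and 200 FPKM.

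**Figure D5:**
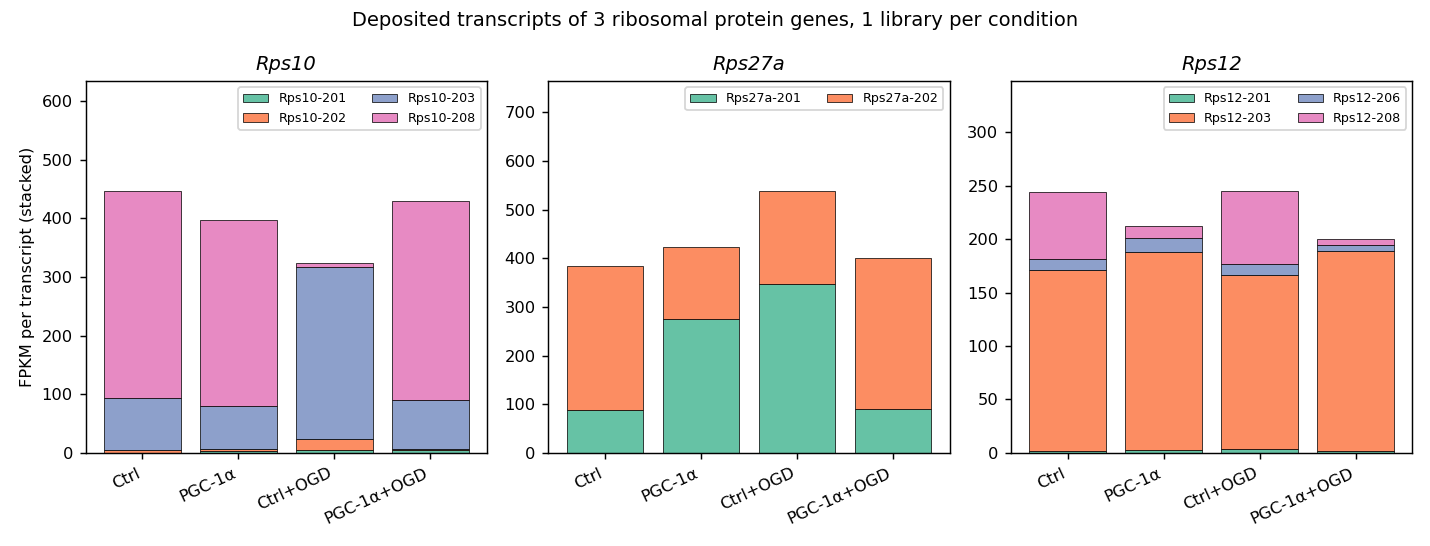
FPKM of the deposited transcripts of Rps10, Rps27a and Rps12, stacked to the sum of the gene, in the 4 libraries (linear axis from 0). Rps10-208 fills most of the bar in 3 libraries and is at 5.61 FPKM in Ctrl+OGD, where Rps10-203 fills it instead. The larger part of Rps27a is Rps27a-201 in PGC-1α and Ctrl+OGD and Rps27a-202 in the other libraries, and the part of Rps12-208 is small in both PGC-1α libraries.

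Genes that work with the ribosomal proteins were read from fixed lists. The 15 elongation factors and other TOP mRNAs had medians of -0.14 in PGC-1α vs Ctrl and -0.08 in PGC-1α+OGD vs Ctrl+OGD, with 14 of 15 below 0 in each, against 54.2% and 52.9% of all genes, and none past 1.5-fold, against 10.5% and 6.9%. Among them, Eef1a1, which delivers aminoacyl-tRNA to the ribosome, was at 1186, 1039, 1212 and 1128 FPKM, and Tpt1 at 537, 414, 527 and 414 FPKM. The medians of this list thus had the same sign as those of the ribosomal proteins. The partners outside the name rule had medians of -0.01 and -0.07. Among them was Fau, whose ribosomal protein is made as a fusion with a ubiquitin-like protein, at 485, 458, 497 and 467 FPKM. Rack1, a scaffold on the small subunit, was at 281, 238, 263 and 232 FPKM.

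The lists further from the ribosome itself were more mixed, and their members past 1.5-fold are named here after their values were seen. Of all genes, 4.91% were higher and 5.63% lower past that fold without OGD, and 3.08% and 3.82% with OGD. The 28 initiation factors had medians of -0.01 and -0.08 for PGC-1α, with 1 lower past 1.5-fold without OGD (Eif5) and none with OGD. The 19 measured genes of RNA polymerase I and its factors had medians of -0.10 and -0.14, with 1 higher (Ttf1) and 1 lower (Taf1d) without OGD and 2 lower with OGD (Polr1e and Taf1b). The 42 genes of nucleolar ribosome assembly had medians of 0.10 and -0.07, with 1 higher in each (Mrto4 and Lsg1) and none lower. In PGC-1α vs Ctrl the median of the assembly factors thus lay above 0, where that of the ribosomal proteins lay below it. The 18 regulators of TOP mRNA translation had medians of 0.00 and 0.04, with 2 lower without OGD (Myc and Rptor) and 1 higher (Rptor) and 1 lower (Rps6kb2) with OGD. Myc, a transcription factor that acts on ribosome synthesis, was at 77.5, 33.0, 49.8 and 51.5 FPKM and so lowest in PGC-1α, with log2 fold changes of -1.21 without and 0.05 with OGD. Rptor, the mTOR partner raptor, was at 6.99, 0.444, 1.53 and 8.68 FPKM.

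For OGD, the medians of these lists in control and PGC-1α cells were 0.03 and 0.05 for the elongation factors and other TOP mRNAs, 0.24 and 0.14 for the initiation factors, 0.20 and 0.04 for RNA polymerase I, and 0.24 and 0.11 for nucleolar assembly. Those of the regulators were -0.07 and -0.04. Past 1.5-fold were 6.2% of all genes higher and 7.71% lower in control cells, and 3.82% and 5.22% in PGC-1α cells. None of the elongation factors and other TOP mRNAs was. Of the initiation factors 2 were higher in each kind of cells. The scaffold of cap-dependent initiation, Eif4g1, was among them in both, at 75.4, 58.6, 125 and 116 FPKM, beside Eif2b3 in control cells (0.67) and the cap-binding protein Eif4e in PGC-1α cells (0.82). For RNA polymerase I, 3 genes were higher in control cells (Ttf1, Polr1e and Polr2e, 0.62 to 1.24) and 1 was lower (Taf1d, -0.78), and none passed in PGC-1α cells. For nucleolar assembly, 4 were higher in control cells (Mrto4, Nolc1, Ebna1bp2 and Rrp9, 0.71 to 1.63) and 1 was lower (Lsg1, -0.83), and again none passed in PGC-1α cells. Of the regulators 4 were lower in control cells (Rptor, Mxd4, Myc and Deptor, -1.66 to -0.59). In PGC-1α cells 2 were higher (Rptor, 2.75, and Myc, 0.63) and 2 lower (Mxd4, -0.68, and Rps6kb2, -0.61). The ribosomal proteins, with 0.10 and 0.15, thus lay between the elongation factors and the initiation factors in control cells.

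Beyond these lists, the genes whose 4 values were most like the mean of the ribosomal proteins on the log2 scale were Fam136a, Brd1, Rbm15b, Pdia5 and Gnb1, with Pearson's r from 0.9988 to 0.9997 over 4 libraries. With so few libraries an r this high carries little weight. Of the 10604 genes compared, 47 outside the group had an r above 0.99.

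The group also shares features that the name rule did not use. The 83 genes lie on 19 chromosomes, with 14 on chromosome 7 and 4 on the X chromosome. In 30 of them the gene holds at least 1 small nucleolar RNA gene, 58 in all, the guides for modification of ribosomal RNA. The coding length was short, with a median of 453 bases. In 26 genes the annotation holds a near-identical copy, and 28 share exons with another annotated gene, so their values are uncertain to the extent that reads were divided between copies. Whether the copies are transcribed was not examined.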

How the data were processed

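RNA-Seq values of 4 libraries of HT-22 cells, 1 per group, were analysed. Poly(A) RNA was made into stranded libraries and sequenced from both ends, and the submitters' processing notes name HISAT2 2.1.0 and build GRCm38. The authors deposited 1 table of values per transcript, taken here as FPKM because they are never negative and the column totals differ. The program that made them is not given in the sources used here. The table holds 25889 transcripts with a highest value of at least 0.500, and between 1736 and 2070 of them are listed at 0 in a library. Low values did not fall on whole-read steps: at best 26.7% to 38.5% lay within 0.1 of a step, where chance gives 20%. No interval for counting error could therefore be given.

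Transcripts were matched without version to GENCODE M21 (25822 matched) and summed by symbol. Fold changes are differences of log2(FPKM + 1) without further scaling, which understates changes of low genes, over 10604 genes with a mean of at least 1. All 83 members passed this filter. Annotated copies were searched with BLAST 2.17.0+ (at least 95% identity over at least 80% of the transcript). A copy of only the coding part of a transcript with long noncoding parts is therefore not counted. Start-site windows came from RefSeq. No column was without a sample.

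Named were Ppargc1a, the 5 members with the highest mean, the 3 with the largest rise and fall in each comparison, all past 1.5-fold, Rps10 by transcript, listed members of known role, paralog pairs and the 5 genes most like the group. The single values of 1 member and 1 partner gene are not reported here and are not drawn, though both enter the counts and medians. Members, lists and markers were chosen with earlier results of these data known. The lists came from general knowledge. Alternatives were a pseudocount of 0.1, no filter, a mean of at least 5, median ratio scaling, columns scaled to 1000000, the transcript of highest mean, protein-coding transcripts and 2-fold. The scripts ran in Python 3.11.15 with pandas 2.3.3, numpy 2.4.6 and, for plots, matplotlib 3.10.9, and were tested on simulated data.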

Additional observations from a re-analysis of the deposited data

Results flagged for a closer look

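In these transcripts, each with a mean of at least 50 FPKM, the log2 fold change for PGC-1α had opposite signs without and with OGD, with at least 1 of them past 1.5-fold. Rps10-208 had -0.15 without and 5.69 with OGD, a difference of 5.84, and rests on its value of 5.61 FPKM in Ctrl+OGD. Rps27a-201 had 1.64 and -1.94, a difference of -3.58, and Rps27a-202 had -1.01 and 0.69, a difference of 1.70. Rps25-201 had 0.11 and -0.79, a difference of -0.90, and Rpl7-205 had 0.50 and -0.85, a difference of -1.35. With 1 library per group, none of these differences was tested.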

How the results depend on the processing

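No paired analysis was possible because each comparison set 1 library against 1, so that no group shares more than 1 replicate number with another, and no library could be left out. A joint fit of PGC-1α over both pairs with OGD as a block was not run. The median log2 fold changes of the ribosomal protein genes kept their sign in all 4 comparisons and moved by less than 0.1 under every alternative, although the median of Ctrl+OGD vs Ctrl was 0.01 with columns scaled to the same total. The counts past 1.5-fold are small and moved more. With the transcript of highest mean in place of the sum they were 7 for PGC-1α without OGD and 4 with OGD, in place of 3 and 2, and for OGD 2 in control and 5 in PGC-1α cells, in place of 0 and 2. That choice also gave the members 10.4% of the total in Ctrl+OGD in place of 11.5%, and moved 16 of 52 values of single named genes by 0.1 or more. With columns scaled to 1000000 the count in PGC-1α vs Ctrl was 5. At 2-fold it was 1, as was that under OGD. Chosen after seeing the data were 3 narrower groups. Without Rps10 all counts stayed as they were. The 33 members with 1 deposited transcript had 0 past 1.5-fold in PGC-1α vs Ctrl, 1 in the same comparison under OGD and 1 for OGD in PGC-1α cells. The 57 members without a near-identical copy had 1 in each of these. The depth behind the values is unknown, so the error of a single value cannot be given.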
